A study of Mus musculus with 12 samples.

Results

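Hox genes encode homeodomain transcription factors, and they were examined here in RNA of enriched blood from injured mice. The members were all rows of the deposited table whose symbol is Hoxa, Hoxb, Hoxc or Hoxd followed by a number, which gave 40 rows for 39 symbols among 37583 genes. Hoxa3 is listed under 2 gene identifiers. Whole blood of wild-type mice was passed through the iChip, a microfluidic sorter, and total RNA of the enriched cells, labelled as cMPCs (circulating mesenchymal progenitor cells) and blood cells, was made into libraries with the Seqwell Rapid kit. All animals had the burn/tenotomy injury, a burn combined with cutting of a tendon, and the groups were 6h, Day1 and Day7 after it, with 4 libraries each. No uninjured group was analysed here, and since the labels give no animal for each replicate, every p-value reflects how far these libraries differ within a group, some of which may be technical.

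Mammalian Hox genes lie in 4 clusters, named a to d, and are numbered into 13 paralogue groups by their order along the cluster. In the embryo the low-numbered genes are active toward the head and the high-numbered genes toward the tail and the ends of the limbs. Adult fibroblasts and other stromal cells keep part of that pattern, so that the set of Hox genes a stromal cell expresses reflects the body region it came from. Some Hox genes also act in blood stem and progenitor cells, among them Hoxa9 and Hoxb4, while mature red cells and platelets carry little Hox RNA.

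Values are the deposited ones, which the authors named CPM and which are reads per gene scaled to an effective library size. They are called deposited values below, and differences are on the log2(value + 1) scale unless another is named. The libraries held 5098395 to 12379041 reads, of which haemoglobin genes took 16.1% to 70.3%, and 7631 to 16647 genes had at least 1 read. A value that stands for 1 read ran from 0.0314 in Day1 replicate 2 to 0.617 in Day7 replicate 3, so a listed 0 allows a true level of up to 0.0942 in the first of these libraries and up to 1.85 in the other, the value of 3 reads. Y-linked genes gave reads in Day1 replicates 2, 3 and 4 and in 6h replicates 3 and 4, and in none of the other 7 libraries. 6h replicate 1 and Day7 replicate 3 had the fewest genes, 7631 and 7635.

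Of the 40 Hox rows, 32 had at least 1 read in some library and 8 had none, namely Hoxa6, Hoxa13, Hoxb1, Hoxb13, Hoxc11, Hoxc12, Hoxd12 and the Hoxa3 row ENSMUSG00000059723. No row had reads in all 12 libraries. At 6h, 4, 4, 11 and 5 rows were detected in replicates 1 to 4. At Day1, 15, 28, 19 and 12 rows were detected, and at Day7, 9, 5, 1 and 5 rows. Each Day1 library thus held more Hox rows than any other library, and the means were 6 ± 3.37 for 6h, 18.5 ± 6.95 at Day1 and 5 ± 3.27 at Day7 (SD, n = 4 each). After thinning every library to the smallest read total, each Day1 library still had the higher expected number, with 3.81, 4, 10.8 and 4.8 rows at 6h, 14.9, 27.3, 19 and 11.3 rows at Day1, and 7.56, 4.4, 0.56 and 4 rows at Day7. After thinning to the smallest number of reads outside haemoglobin this did not hold for every library, since Day1 replicate 4 had 10.5 expected rows and 6h replicate 3 had 11. With a minimum of 3 reads the Day1 libraries held 12, 27, 19 and 10 rows, against 1 to 6 rows in the 6h libraries and 0 to 6 rows in the Day7 libraries.

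Across each group, 16 rows had a read in some 6h library, 31 rows in some Day1 library and 13 rows in some Day7 library. Reads in every library of the group were found for 9 rows at Day1 and for 0 rows at 6h and at Day7. There were 13 rows with reads in Day1 libraries alone. Of 7 rows seen in 1 library only, Hoxc10, Hoxd1, Hoxd4 and Hoxd11 came from Day1 replicate 2, Hoxa11 and Hoxd3 from Day1 replicate 3, and Hoxb8 from Day1 replicate 4. The mean was highest at Day1 for 28 of the 32 rows with reads. Over all genes, 7631 to 11708 had a read in the 6h libraries, 12776 to 16647 in the Day1 libraries and 7635 to 13353 in the Day7 libraries. The median log2 difference over all tested genes was 0.52 for Day1 against 6h and -0.48 for Day7 against Day1. The share of all genes with these patterns was not counted, so the counts are not read as particular to Hox genes.

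**Figure D1:**
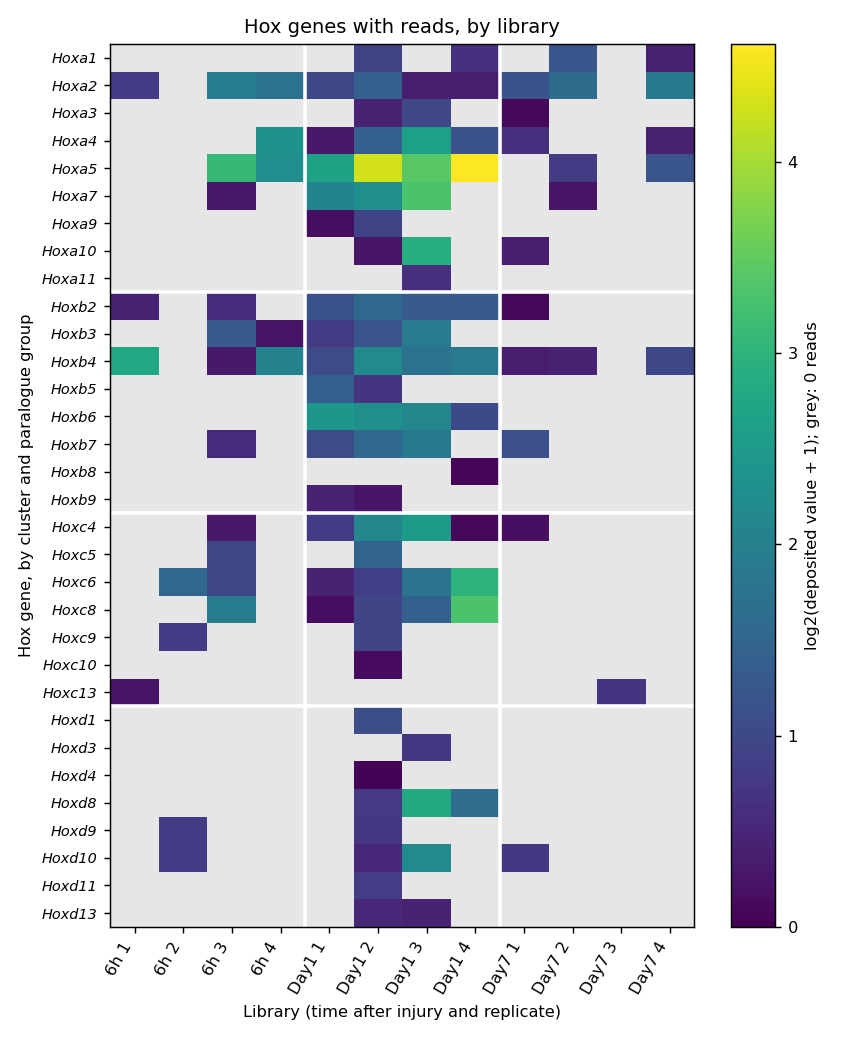
Deposited values of the 32 Hox rows with reads (rows, in order of cluster and paralogue group) in the 12 libraries (columns), as log2(deposited value + 1); grey cells had 0 reads. The Day1 columns hold 12 to 28 coloured cells, the 6h columns 4 to 11 and the Day7 columns 1 to 9.

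The 12 libraries held 4454 Hox reads in all. The 6h libraries had 38, 11, 76 and 227 Hox reads, the Day1 libraries 176, 1715, 843 and 1260, and the Day7 libraries 65, 25, 1 and 17. Per 1000000 reads of the library this was 6.25, 2.16, 14.1 and 18.3 at 6h, 33.5, 153, 114 and 130 at Day1, and 6.19, 2.9, 0.11 and 1.87 at Day7. The exact 95% intervals, which cover counting error only, began at 28.7 in the lowest Day1 library and ended at 20.9 in the highest 6h library. Summed over all Hox rows, the deposited values were 7.09, 4.17, 18.3 and 13.6 at 6h, 21.8, 53.9, 63.9 and 49 at Day1, and 4.47, 4.78, 0.617 and 5.65 at Day7. The Day1 sums lay above all sums of the other times, and the sum averaged 10.8 ± 6.39 at 6h, 47.1 ± 18 at Day1 and 3.88 ± 2.23 at Day7 (SD, n = 4 each). The lowest Day1 sum, 21.8, belonged to replicate 1, which had no Y-linked reads, and the 6h libraries that had them had sums of 18.3 and 13.6. Y-linked reads were spread unevenly over the times, and their part in the Hox sum was not tested. In bulk RNA, fewer cells that express a gene and less RNA of it per cell cannot be told apart.

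Hoxa5, which in mice patterns the neck and upper trunk and is needed for lung development, supplied 1469 of the Hox reads (33.0%). Hoxa2, a regulator of hindbrain and head-arch identity, was the tested member with its lowest mean at Day1. The promoters of this pair are shown because their genes lie in the same cluster and stood apart in these libraries. They are the 250 bases before and 50 bases after the start in RefSeq on build GRCm38.p6, at chr6:52204538-52204837 for Hoxa5 and chr6:52164782-52165081 for Hoxa2, both on the minus strand. Capitals mark AGGTCA, the half-site bound by retinoic acid receptors and other nuclear receptors.
Hoxa5 promoter: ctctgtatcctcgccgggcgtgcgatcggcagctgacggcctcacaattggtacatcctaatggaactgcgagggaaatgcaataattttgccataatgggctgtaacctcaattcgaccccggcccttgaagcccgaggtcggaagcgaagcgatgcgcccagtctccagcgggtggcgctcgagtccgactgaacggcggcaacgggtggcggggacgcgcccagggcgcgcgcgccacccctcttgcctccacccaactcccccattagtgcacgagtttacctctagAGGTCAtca
Hoxa2 promoter: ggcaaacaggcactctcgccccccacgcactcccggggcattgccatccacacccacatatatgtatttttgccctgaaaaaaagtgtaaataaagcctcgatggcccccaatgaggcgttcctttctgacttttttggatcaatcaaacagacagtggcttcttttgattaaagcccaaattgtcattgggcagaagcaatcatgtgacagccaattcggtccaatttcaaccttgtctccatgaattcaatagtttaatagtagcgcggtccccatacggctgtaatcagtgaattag
The motifs AGGTCA, TGATTNAT (a joint site of HOX and TALE proteins) and CCAAT were searched on both strands, and none of them contains another. The Hoxa5 window held 1 AGGTCA and 1 CCAAT, with 29 CpG and a GC content of 61.7%. The Hoxa2 window held no AGGTCA, 1 TGATTNAT and 4 CCAAT, with 9 CpG and a GC content of 45.7%. Among all 32851 promoters of the table, 16.3% held AGGTCA, 3.22% TGATTNAT and 37.4% CCAAT. Among the 24 promoters that matched 22 Hox symbols, 7 held AGGTCA, 2 held TGATTNAT and 15 held CCAAT. A match is a stretch of letters and not a measured binding site.

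The deposited values of Hoxa5 were 0, 0, 7.48 and 3.78 at 6h, 5.31, 18.7, 9.63 and 23.5 at Day1, and 0, 0.766, 0 and 1.33 at Day7. All Day1 libraries lay above all Day7 libraries, while Day1 replicate 1 lay below 6h replicate 3. Hoxa5 averaged 2.81 ± 3.59 at 6h, 14.3 ± 8.28 at Day1 and 0.524 ± 0.647 at Day7 (SD, n = 4 each). It had the most reads of all Hox genes in each Day1 library, with 24.4%, 34.6%, 15.1% and 47.9% of their Hox reads.

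Hoxb6, a trunk-level gene of the b cluster, had 0 reads in every 6h library. At Day1 its deposited values were 4.45, 3.93, 3.41 and 1.05, and at Day7 it again had 0 reads in every library. It was the sole member with reads in each Day1 library and in no other library. Taking 3 reads over the 6h group as the floor, its pooled level was at least 28.4-fold higher at Day1 than at 6h, and at least 12-fold higher without 6h replicate 4. By the same floor its pooled level was at least 24-fold lower at Day7 than at Day1, and at least 9.71-fold lower without Day7 replicate 1.

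Hoxb2, which acts in the hindbrain, had values of 0.373, 0, 0.483 and 0 at 6h, 1.24, 1.92, 1.52 and 1.52 at Day1, and 0.0688, 0, 0 and 0 at Day7. Its Day1 libraries were close to each other (1.55 ± 0.279, SD, n = 4) and lay above all libraries of the other times. Hoxb4, which expands blood stem cells when overexpressed, had 5.79, 0, 0.241 and 3.18 at 6h, 1.11, 3.55, 2.35 and 2.8 at Day1, and 0.275, 0.383, 0 and 0.998 at Day7. Its highest value of all was in 6h replicate 1, where it held 81.6% of the Hox reads, and its Day7 libraries lay below all Day1 libraries.

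Hoxa4, a gene of the neck region, had 0, 0, 0 and 4.2 at 6h, 0.247, 1.66, 5.08 and 1.21 at Day1, and 0.55, 0, 0 and 0.333 at Day7. Its 6h level came wholly from replicate 4. Hoxb7 had 0, 0, 0.483 and 0 at 6h, 1.11, 1.95, 2.65 and 0 at Day1, and 1.17, 0, 0 and 0 at Day7. Its groups overlapped, since Day1 replicate 4 had no read of it. Hoxa2 had 0.747, 0, 2.9 and 2.28 at 6h, 0.989, 1.66, 0.303 and 0.311 at Day1, and 1.24, 2.11, 0 and 2.66 at Day7. It averaged 1.48 ± 1.34 at 6h, 0.817 ± 0.65 at Day1 and 1.5 ± 1.16 at Day7 (SD, n = 4 each). Hoxa2 was the Hox gene with the most reads in Day7 replicates 1, 2 and 4, with 18, 11 and 8 reads.

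**Figure D2:**
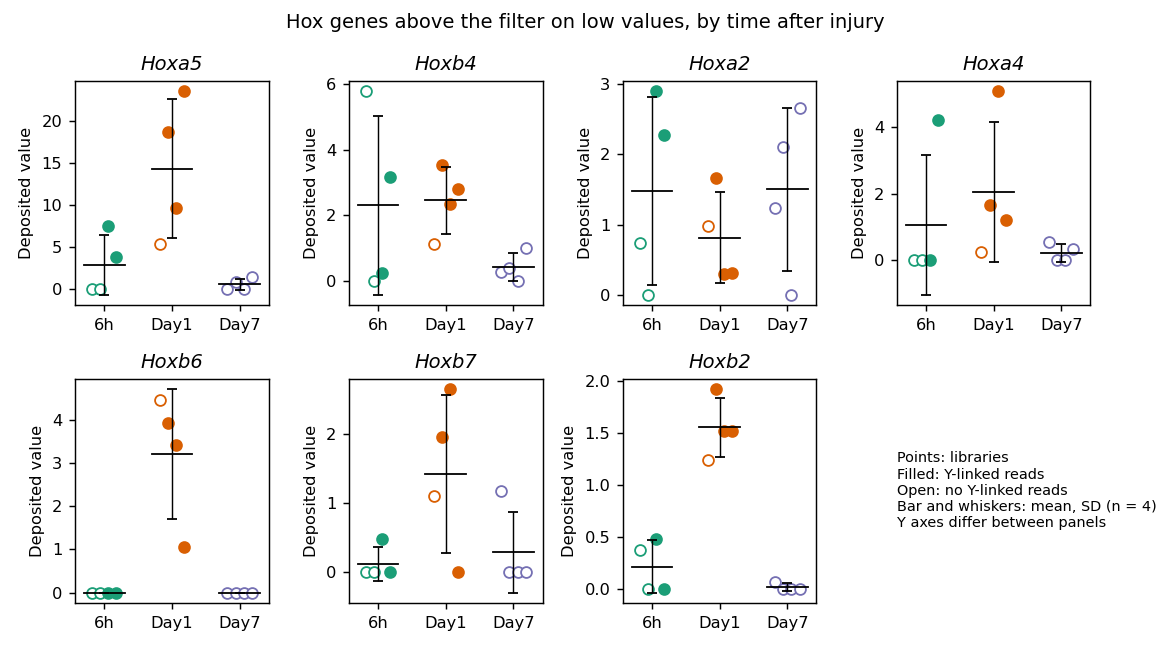
Deposited values of the 7 Hox genes that reached a value of 1 in at least 4 libraries, by time after injury, with 1 point per library and the mean and SD of 4 libraries as bar and whiskers; filled points are libraries with Y-linked reads. Hoxa5, Hoxb2, Hoxb4 and Hoxb6 have all Day7 points below all Day1 points, as do 14.5% of all tested genes. For Hoxb2 and Hoxb6 the filter fixed this in advance. Hoxa2 has its lowest mean at Day1. The vertical axes differ between panels.

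These 7 genes were the members that passed the filter on low values, which 11211 genes passed in all, and limma was fitted to all of those. Hoxb2 and Hoxb6 reached the filter value of 1 in the 4 Day1 libraries and in no other. Passing the filter thus fixed that their Day1 libraries lay above all others, and their differences, p-values and calls, and counts over the 7, are given as a description. Between Day7 and Day1, which share the Day1 libraries with the comparison of Day1 and 6h, 2 of the 7 were called lower at Day7 at an adjusted p under 0.05, and 5.78% of all tested genes were called in either direction, 3.59% lower. Over all genes 245 were called higher and 403 lower at Day7, against 10 and 3947 with reads scaled to the library total. Hoxa5 fell at Day7 relative to Day1 with a log2 fold change of -3.23 (SE 0.86, limma adjusted p = 0.0347). Hoxb6 fell with a log2 fold change of -1.98 (SE 0.48, limma adjusted p = 0.0282). Hoxb2 was next, with -1.32 (SE 0.43, limma adjusted p = 0.0618), and Hoxb4 had -1.28 (SE 0.68, limma adjusted p = 0.214). Of the 7 genes, 6 had a negative and 1, Hoxa2, a positive difference (0.37, SE 0.63), which turned to -0.46 with reads scaled to the library total and to -0.33 with scaling to reads outside haemoglobin. The median difference over the 7 was -1.28, and over all tested genes it was -0.48. All Day7 libraries lay below all Day1 libraries for 4 of the 7, as they did for 14.5% of all tested genes, and for Hoxb2 and Hoxb6 the filter fixed this. With reads scaled to the library total or to the reads outside haemoglobin, 5 of the 7 were called lower, and 35.3% and 33.8% of all tested genes were called.

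Both calls depended on the libraries and the model, and that of Hoxa5 also on the filter and the pseudocount. Without a filter the limma adjusted p was 0.0937 for Hoxa5, 0.0418 for Hoxb6 and 0.0418 for Hoxb2, and with a pseudocount of 0.25 it was 0.0511 for Hoxa5. Hoxa5 was no longer called when Day1 replicate 2, 3 or 4 or Day7 replicate 2, 3 or 4 was left out, with limma adjusted p between 0.0234 and 0.0918 over all libraries left out in turn. Hoxb6 was no longer called without Day1 replicate 2 or 3 or Day7 replicate 2, 3 or 4 (limma adjusted p between 0.0193 and 0.0755). edgeR's quasi-likelihood test on the recovered reads called neither, with an adjusted p of 0.147 for Hoxa5 and 0.11 for Hoxb6, and called 0.00892% of all tested genes. DESeq2 called both, with an adjusted p of 0.00782 for Hoxa5 and 0.016 for Hoxb6, and called 15.8% of all tested genes. No Day7 library had Y-linked reads, whereas 3 of the Day1 libraries did, and in a limma fit that included presence of Y-linked reads the difference was -1.62 for Hoxa5 (adjusted p = 0.397) and -2.18 for Hoxb6 (adjusted p = 0.131), with 0% of all tested genes called.

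Between Day1 and 6h, limma called 0 of the 7 genes, and 0.169% of all tested genes. At an unadjusted limma p under 0.05 there were 3 of 7 (11.2% of all tested genes), while edgeR (0.0803% of all tested genes called) and DESeq2 (1.76%) called 0. DESeq2 gave no adjusted p for Hoxb2 and Hoxb7 in any comparison. The log2 fold changes at Day1 relative to 6h were 2.41 for Hoxa5 (SE 0.86, limma adjusted p = 0.324), 1.98 for Hoxb6 (SE 0.48, limma adjusted p = 0.0961) and 1.09 for Hoxb2 (SE 0.43, limma adjusted p = 0.371). The median over the 7 was 0.98, and over all tested genes it was 0.52. All Day1 libraries lay above all 6h libraries for Hoxb2 and Hoxb6 alone, where the filter fixed it, so their count says nothing beside the 5.52% of all tested genes. Scaling moved this comparison. With reads scaled to the library total, Hoxa5, Hoxb2 and Hoxb6 were called higher at Day1 (3 of 7), when 10.6% of all tested genes were called and the median over all genes was 1.59. With scaling to reads outside haemoglobin 2 of 7 were called, and 3.79% of all tested genes. Hoxa2 was the 1 member with a negative difference, -0.33 (SE 0.63, limma adjusted p = 0.876), and with reads scaled to the library total it turned to 0.23.

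Between Day7 and 6h, limma called 0 of the 7 genes, 0.883% of all tested genes, and 0 of the 7 had an unadjusted limma p under 0.05 (18% of all tested genes). edgeR (0.749% of all tested genes called) and DESeq2 (9.59%) called 0 as well, and here DESeq2 gave no adjusted p for Hoxa4 either. Differences ranged from -0.83 for Hoxb4 (SE 0.68, limma adjusted p = 0.539) and -0.82 for Hoxa5 (SE 0.86, limma adjusted p = 0.64) to 0.14 for Hoxb7 (SE 0.49, limma adjusted p = 0.905).

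The other members with reads were too low or too uneven for the filter, and several of them were high in 1 or 2 Day1 libraries. Hoxc8, a gene of the thoracic level, had 0.124, 0.942, 1.67 and 8.95 at Day1, and at 6h it had reads in replicate 3 alone (2.9). With 0 reads at Day7 against 283 reads at Day1, its pooled level was at least 29.2-fold lower at Day7, and at least 8.11-fold lower without Day1 replicate 4. Hoxc6, also thoracic, had 0.371, 0.816, 2.43 and 6.89 at Day1, with 0 reads at Day7 against 238 at Day1, at least 24.6-fold lower and at least 9.34-fold lower without Day1 replicate 4. Hoxd8 had 0, 0.691, 5.99 and 2.14 at Day1 and no read at 6h or Day7, at least 16.1-fold lower at Day7 and at least 6.5-fold lower without Day7 replicate 1.

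Hoxa7, of the thoracic level, had 1 read at 6h, values of 3.21, 3.89, 8.95 and 0 at Day1, and 1 read at Day7. Its pooled level was 82.9-fold lower at Day7 than at Day1, with an exact 95% interval of 14.8 to 3288. Without Day7 replicate 2, which held that read, the floor of 3 reads gives at least 21.7-fold. Hoxc4 had 0.742, 3.42, 4.7 and 0.0778 at Day1, with 2 reads at Day7 against 179 at Day1. Its pooled level was 27.7-fold lower at Day7, with an interval of 7.56 to 230. Without Day7 replicate 1, which held both reads, the floor gives at least 7.46-fold. The intervals and floors for Hoxa7 and Hoxc4 cover counting error only, and not the spread between libraries. Day1 replicate 4 differed from the other Day1 libraries in these genes, with the highest Hoxc8 and Hoxc6 and no Hoxa7 or Hoxb7.

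Members of groups 9 to 13 were sparse. Hoxa9, which acts in blood precursors, had 28 reads, 27 of them in Day1 replicate 2 and 1 in Day1 replicate 1. Hoxa10, of the lumbar level and the uterus, had 84 of its 94 reads in Day1 replicate 3, which gave a deposited value of 6.37 there and 0 in Day1 replicate 4. Hoxd10 had 47 of its 73 reads in the same library (3.56). Hoxd13, which shapes the digits, had 14 reads in Day1 replicate 2 and 5 in Day1 replicate 3. Hoxc13, a gene of hair follicles, had 1 read in 6h replicate 1 and 1 read in Day7 replicate 3, where it was the sole Hox read. 6h replicate 2, with 11 Hox reads in all, had Hoxc6, Hoxc9, Hoxd9 and Hoxd10 alone.

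By paralogue group, groups 5 to 8 held 2891 of the 4454 Hox reads (64.9%), groups 1 to 4 held 1247 (28.0%) and groups 9 to 13 held 316 (7.09%). By cluster, a held 52.6% of the pooled reads, b 21.3%, c 18.5% and d 7.7%, and single libraries differed in this order. Cluster a held 45.5%, 52.3%, 49.8% and 52.1% of the Hox reads of Day1 replicates 1 to 4, cluster c 5.68%, 14.9%, 13.8% and 32.5%, and cluster d 0%, 7.81%, 16.6% and 4.37%. Cluster b held 86 of 176, 428 of 1715, 167 of 843 and 139 of 1260 of these reads, so it led in replicate 1 and was below cluster c in replicate 4. In 6h replicate 1 cluster b led with 86.8%, and in 6h replicate 2 cluster c led with 63.6% of 11 reads. Levels between genes are compared per length, as deposited value per kb of the gene length in the table. At Day1 the mean per kb was 7.61 for Hoxa5, 1.55 for Hoxb6, 1.27 for Hoxc8, 1.05 for Hoxc6, 1.04 for Hoxd8 and 1.03 for Hoxa4, so Hoxa5 led and the others did not differ beyond their spread between libraries. Groups 5 to 8 held 78.2%, 67.5%, 59.2% and 91.0% of the Hox level per kb in Day1 replicates 1 to 4, groups 1 to 4 held 19.8%, 25.2%, 28.5% and 9.01%, and groups 9 to 13 held 2.01%, 7.35%, 12.3% and 0%. In 6h replicate 3 the share of groups 5 to 8 was 75.6%, in 6h replicate 4 it was 34.1% and in Day7 replicate 1 it was 18.6%. The Day1 libraries thus all had most of their Hox level in groups 5 to 8, and Hoxa5 was a large part of it. At Day1 the mean per kb was 14.1 for groups 5 to 8 together, against the 7.61 of Hoxa5. Beside Hoxa5, the libraries differed in which members carried the level. The shares of the groups without Hoxa5 were not computed.

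**Figure D3:**
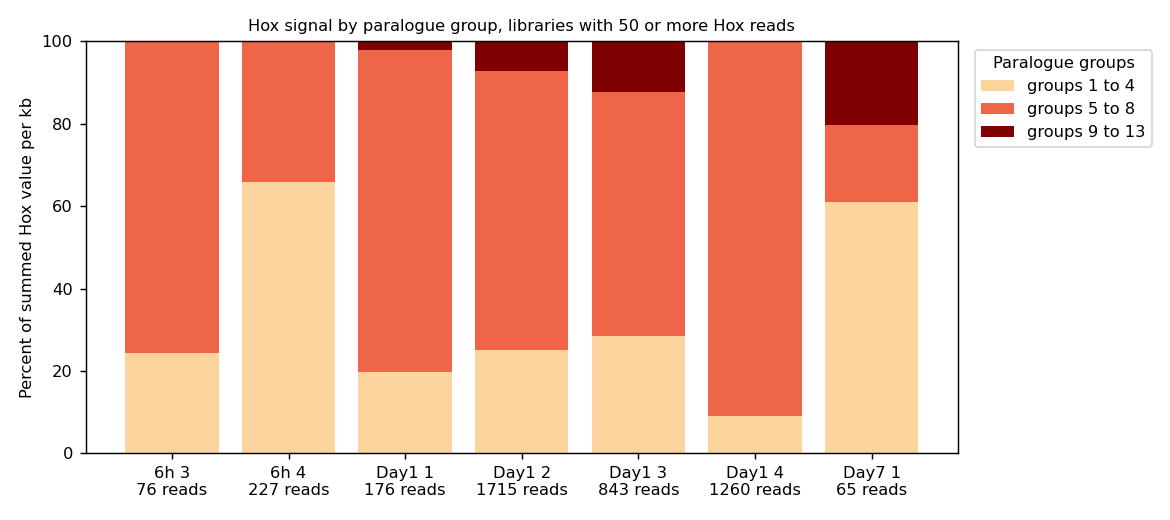
Percent of the summed Hox value per kb held by paralogue groups 1 to 4, 5 to 8 and 9 to 13 in the 7 libraries with 50 or more Hox reads, with 1 stacked bar per library and its Hox reads under it. Groups 5 to 8 hold 59.2% to 91.0% of the bar in the 4 Day1 libraries, and groups 9 to 13 hold 0% to 12.3%.

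Whether Hox genes followed mesothelial and matrix genes across libraries was examined with 2 lists, 17 markers of mesothelium, the cell layer that lines the body cavities, and 26 genes of collagens and matrix, of which 22 were tested. The mesothelial level, the mean log2(value + 1) over the list, was 3.88, 1.29, 6.57 and 5.32 in the 6h libraries, 4.74, 6.84, 6.38 and 6.7 in the Day1 libraries, and 2.56, 1.87, 0.296 and 3.17 in the Day7 libraries. The matrix level was 2.73, 1.88, 5.56 and 4.68 at 6h, 3.9, 6.05, 5.1 and 5.73 at Day1, and 2.81, 1.97, 0.867 and 3.14 at Day7. Both levels were lowest in Day7 replicate 3, where 1 Hox read was found, and highest in Day1 replicate 2. Krt19, Upk3b and Msln were the most abundant mesothelial markers, and Dcn, Sparc and Fbln1 the most abundant matrix genes. Msln, the surface protein mesothelin, had 90.4, 5.68, 333 and 205 at 6h, 111, 478, 407 and 339 at Day1, and 15.6, 2.87, 0.617 and 27.3 at Day7.

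The summed Hox level followed both lists. Over the 12 libraries, the log2 Hox sum correlated with the mesothelial level at Pearson r = 0.939 and Spearman rho = 0.923, and with the matrix level at r = 0.927 and rho = 0.895. The libraries share their depth, their effective library size and their time group, so these are descriptions without a test. The Day1 libraries stand apart on the Hox axis, and with the time-group means removed r was 0.904 for the mesothelial and 0.892 for the matrix level. In the 8 libraries of 6h and Day7 alone r was 0.942 and 0.935. In the 7 libraries without Y-linked reads r was 0.916 and 0.918. Without the 2 libraries farthest from the median (Day7 replicate 3 and 6h replicate 2 for the mesothelial level, Day7 replicate 3 and Day1 replicate 2 for the matrix level) r was 0.911 and 0.875. Without Hoxa5 in the Hox sum r was 0.902 and 0.88. In each of these subsets r was thus 0.875 or higher.

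**Figure D4:**
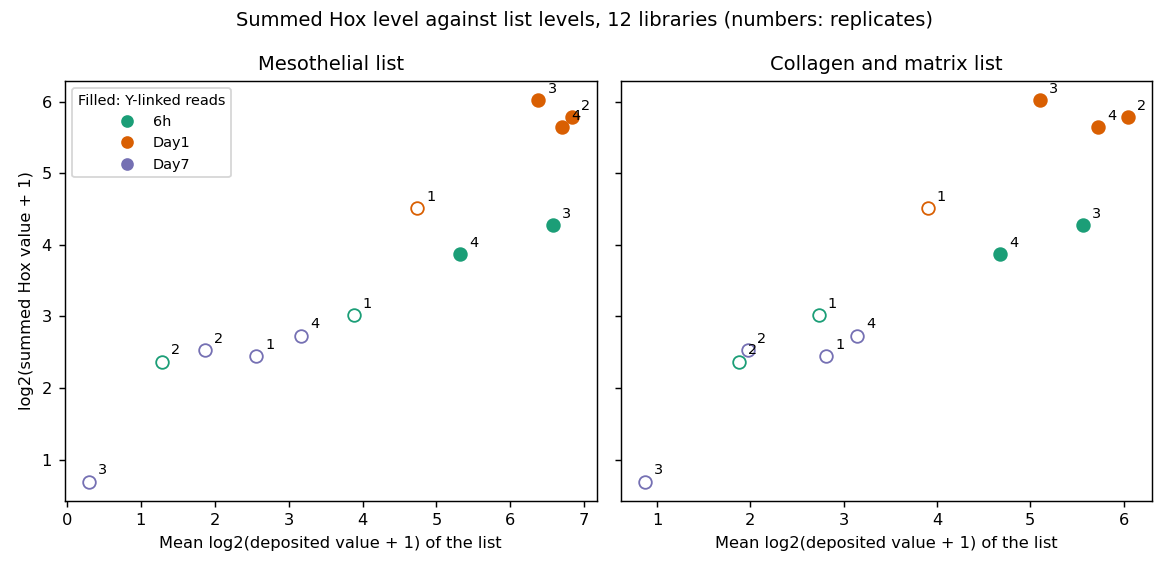
log2(summed Hox value + 1) (vertical) against the mean log2(deposited value + 1) of the mesothelial list (left) and of the collagen and matrix list (right), with 1 point per library, coloured by time and numbered by replicate; filled points are libraries with Y-linked reads. Points run from Day7 replicate 3 at the low end to the Day1 libraries at the high end, with r of 0.939 and 0.927.

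The Hox sum was not a fixed share of the mesothelial signal. For each 1000 units of summed mesothelial value, the Hox sum was 8.91, 75.3, 6.27 and 8.64 in the 6h libraries, 31.5, 14.8, 26.3 and 15.9 in the Day1 libraries, and 21.8, 36.3, 111 and 15.6 in the Day7 libraries. The ratios of 75.3 and 111 come from the libraries with the lowest mesothelial values, 6h replicate 2 with 11 Hox reads and Day7 replicate 3 with 1 Hox read. Per 1000 units of summed matrix value it was 14.4, 5.89, 5.78 and 9.13 at 6h, 30.7, 11.8, 27.2 and 10.1 at Day1, and 10.3, 35.5, 14.7 and 6.78 at Day7. 6h replicate 3 shows the gap on both scales, with a mesothelial level of 6.57, close to the 6.38 of Day1 replicate 3, and a Hox sum of 18.3 against 63.9 in that Day1 library.

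Gene by gene, Hoxa5 followed both lists most closely, with r of 0.903 with the mesothelial and 0.927 with the matrix level, and 0.833 and 0.892 with time-group means removed. Hoxb2 had r of 0.784 and 0.756, and 0.558 and 0.473 with the means removed. Hoxb4 (0.639 and 0.553), Hoxa4 (0.596 and 0.609) and Hoxb7 (0.488 and 0.491) were looser, and their r lay between 0.219 and 0.414 with the means removed. Hoxb6 had 0.582 and 0.563 over all libraries but -0.172 and -0.203 with the means removed, and its highest Day1 value, 4.45, was in replicate 1, the Day1 library with the lowest mesothelial level. Hoxa2 showed the opposite, with 0.309 and 0.333 over all libraries and 0.786 and 0.768 with the means removed. These values rest on few reads for every gene, except for Hoxa5 at Day1. Hoxa5 had 1367 reads at Day1, 94 at 6h and 8 at Day7.

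Against the background of the 11204 tested genes that are not Hox members, whose median r with the Hox sum was 0.234 (quartiles -0.17 and 0.537), 1334 (11.9%) had r of at least 0.7. All 17 mesothelial markers were among them, with a median r of 0.867 (0.8 to 0.932). Of the 22 matrix genes, 15 were, with a median of 0.817 (-0.256 to 0.921). Of 14 tested genes of fibroblasts and mesenchymal progenitors, 7 were, with a median of 0.695 (-0.559 to 0.862). The mean level of that list followed the Hox sum at r = 0.732. Keratinocyte markers had a median r of 0.623 over 6 genes, and their mean level followed the Hox sum at r = 0.917. That level was between 1.6 and 3.21 in 6h libraries, between 2.75 and 4.69 in Day1 libraries and between 0 and 1.88 in Day7 libraries. Among other lists with at least 5 tested genes, medians were 0.283 for hepatocyte genes, 0.136 for B cell genes, 0.0138 for T cell genes, -0.283 for endothelial genes, -0.43 for platelet genes, -0.48 for neutrophil genes and -0.665 for erythroid genes. The 5 tested endothelial genes were not uniform, with r from -0.293 to 0.803, the highest for Kdr. Their mean level had r of -0.072 with the Hox sum, and 0.58 with the time-group means removed. The kidney and urogenital list had 1 tested gene, Lrp2, with r of 0.898. The Y-linked list had 2 tested genes with a median r of 0.827, next to 0.817 for the matrix genes, and 2 reached 0.7. The mean Y-linked level followed the Hox sum at r = 0.838, and at 0.69 with the time-group means removed. Genes of blood stem and progenitor cells, in which some Hox genes are active, had a median of 0.262, and 2 of 9 reached 0.7. How far mesothelial, stromal or skin cells each supplied the Hox reads was not tested.

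**Figure D5:**
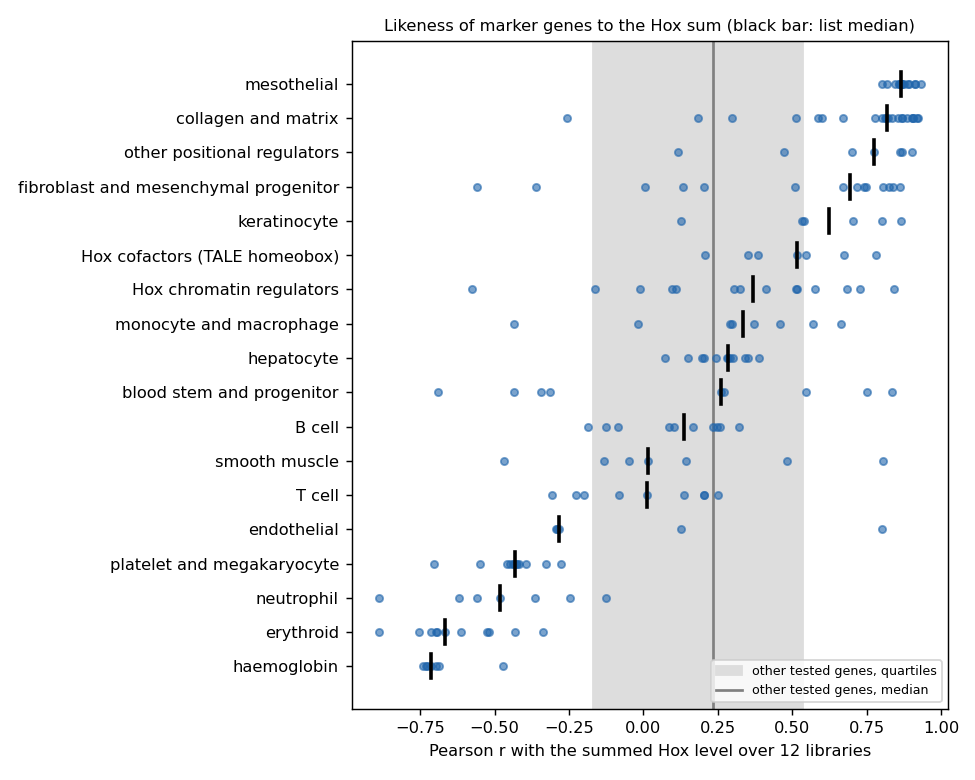
Pearson r of each tested list gene with the log2 summed Hox level over 12 libraries (horizontal), by list, for lists with at least 5 tested genes, with 1 point per gene and the list median as a black bar; the grey band and line give the quartiles and median of the other tested genes. Among the lists shown the mesothelial list has the highest median, 0.867, and erythroid and haemoglobin genes have the lowest.

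The same lists between Day7 and Day1 had 14 of 17 mesothelial markers lower at Day7, with a median log2 difference of -4.35, 10 of 22 matrix genes (median -3.51) and 3 of 14 fibroblast genes (median -1.62), by limma at an adjusted p under 0.05, where 3.59% of all tested genes were called lower. None of these calls remained with edgeR or with a limma term for Y-linked reads, and with that term none of the limma calls of cofactors and positional regulators given next remained either. The members that differed most among the matrix genes were Sparc, a matrix glycoprotein (-5.20, adjusted p = 0.0223), and the collagen chain Col1a2 (-4.98, adjusted p = 0.0282). Between Day1 and 6h none of these lists had a called gene by limma, and the median differences were 1.87, 1.64 and 1.16.

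Hox proteins bind DNA together with cofactors of the TALE homeodomain class. Of 9 cofactor genes 7 were tested, with a median r with the Hox sum of 0.517, and 1 of 7 reached 0.7. That was Meis2, which averaged 0.262 at Day7 and 11.4 at Day1 and fell at Day7 with a log2 fold change of -3.30 (limma adjusted p = 0.0302). Of 16 regulators of Hox chromatin, the Polycomb and Trithorax group proteins and their partners, 14 were tested, with a median r of 0.368. Limma called 0 of them between Day7 and Day1, against 5.78% of all tested genes, and their median difference was -0.47, against -0.48 over all genes, so the count shows nothing particular to them.

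Of 32 other regulators of body position, 7 were tested, with a median r of 0.776, and 5 reached 0.7. Gata6, a regulator of mesoderm and endoderm derivatives, averaged 2.67 at Day7 and 29.9 at Day1 and fell with a log2 fold change of -3.33 (limma adjusted p = 0.0301). Tbx18, a T-box factor of the epicardium and urogenital mesenchyme, had 0 reads at Day7 and averaged 11.6 at Day1 (log2 fold change -3.17, limma adjusted p = 0.0419). Hand2, of heart and limb mesoderm, averaged 0.214 at Day7 and 10.2 at Day1 (log2 fold change -3.04, limma adjusted p = 0.042). Gata4 and Nr2f2 had the lowest r of the 7, 0.115 and 0.473.

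The 10 tested genes outside the family whose values were most like the Hox sum over the 12 libraries were Enox2 (r = 0.963), Slc31a2 (0.957), Lass4 (0.944), Nfib (0.941), Igf2r (0.939), Vat1 (0.937), Zfp36l1 (0.935), Aldh1a2 (0.932), Cyp2s1 (0.932) and Espn (0.929). Aldh1a2, the enzyme that makes retinoic acid, a signal that sets Hox expression in the embryo, is also on the mesothelial list. It averaged 17 ± 25.7 at 6h, 73.5 ± 45.7 at Day1 and 1.25 ± 1.3 at Day7 (SD, n = 4 each). These genes were picked for their likeness, so the values are a description.

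Technical measures were also set beside the Hox sum. Its r was 0.724 with the number of genes detected (rho = 0.629), and 0.529 with the time-group means removed. The mesothelial level had r of 0.616 with that number. For the Hox sum r was -0.359 with the haemoglobin share, 0.24 with the log2 number of reads outside haemoglobin and 0.0442 with the log2 total. The Hox sum was 13.6 to 63.9 in the 5 libraries with Y-linked reads and 0.617 to 21.8 in the 7 without. The part of the number of detected genes in the result was not tested.

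Other transcripts of the Hox clusters were sparse. Hoxb3os, transcribed opposite to Hoxb3, had 193 reads, with values of 0.747, 0, 0 and 0 at 6h, 0.618, 2.07, 3.87 and 2.49 at Day1, and 0.0688, 0, 1.23 and 0 at Day7. Hoxa11as had 19 reads, all in Day1 replicate 2, a library with 0 reads of Hoxa11. The sources do not give the strand setting of the counting, so reads of these genes and of Hoxb3 and Hoxa11 cannot be told apart with certainty, and the 2 Hoxa3 rows may likewise share reads. The 10 rows of Hox-cluster miRNA genes had 0 reads.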

How the data were processed

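Total RNA libraries of iChip-enriched blood were compared between 6h, Day1 and Day7 after burn/tenotomy (4 each, grouped by sample title). The deposited values are a signal per gene that the authors named CPM; the submitters' processing notes name STAR 2.7.10, HTSeq 2.0.1 and mm9. Annotation, strand setting and scaling step: not given in the sources used here. Values were whole multiples of the value of 1 read (100% within 0.01 reads), so reads were recovered; the ratio of effective size to reads equalled edgeR's TMM factor times 0.941 in all 12 libraries. Gene length is the table's other column. Reference names matched 32860 identifiers.

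limma 3.58.1 (R 4.3.3, trended variance, time group as sole factor) was fitted to log2(value + 1) of the 11211 genes that reached 1 in at least 4 libraries, with Benjamini-Hochberg adjustment over all of them and a threshold of 0.05. edgeR 4.0.16 and DESeq2 1.42.0 tested the recovered reads. Other pseudocounts, filters, scalings, array weights, a replicate block, a Y-linked term and left-out libraries were tried. Omitting the 2 libraries poorest in genes, edgeR with the Y-linked term, the 6h and Day7 libraries alone and the Hox sum without Hoxa5 were chosen after the data were seen. The limma fit was checked on simulated counts, with changes planted in genes with a mean of at least 10. That check covered neither edgeR and DESeq2 nor levels as low as those of the Hox genes. Values in every library are given for the tested members with the highest means (8 were asked for, and 7 passed the filter); the 10 genes most like the Hox sum, the 3 most abundant genes of both main lists and up to 4 called members of other lists are named. Further members and the promoter pair were picked after their values were seen. The members and lists were chosen with earlier results of these data known. Kmt2a is listed as Mll1. Binomial and Poisson intervals and floors of 3 reads cover counting error only.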

Additional observations from a re-analysis of the deposited data

Results flagged for a closer look

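In 27 groups of 4 libraries examined, 5 had a library far from the others. The groups were the 7 tested Hox genes, the number of Hox rows detected and the summed level, at each time. The rule is set to flag about 1 in 20 groups of normally distributed values. That rate does not hold for groups with many values of 0, so the number flagged is not read against it. Hoxa4 had a deposited value of 4.2 in 6h replicate 4, from 70 reads, and 0 in the other 6h libraries. Hoxb7 had 0.483 in 6h replicate 3 and 0 in the other 6h libraries, and it had 1.17 in Day7 replicate 1, from 17 reads, and 0 in the other Day7 libraries. Hoxb2 had 0.0688 in Day7 replicate 1, which is 1 read, and 0 in the other Day7 libraries. The number of Hox rows detected was 11 in 6h replicate 3 and 4 to 5 in the other 6h libraries; that library also had the highest mesothelial and matrix levels of its group, 6.57 and 5.56. A gene with reads in 1 library of 4 meets the rule whatever its level.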

How the results depend on the processing

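All 44 other values of the 2 correlations stayed within 0.1 of the reported ones; with each library left out r ran from 0.915 to 0.961 for the mesothelial and from 0.899 to 0.95 for the matrix level. For Day7 against Day1, where 2 of 7 Hox genes were called, 5 were called with scaling to all reads and 5 with scaling to reads outside haemoglobin, 1 with a pseudocount of 0.25, and 0 with edgeR, with the limma term for Y-linked reads or with edgeR and that term; leaving out each library gave 0 to 3. For Day1 against 6h, where 0 were called, 3 were called with scaling to all reads, 2 with scaling to reads outside haemoglobin and 1 with array weights, and 0 without any 1 library. Those 2 scalings moved the median of all genes to 1.59 and 1.24 for Day1 against 6h and to -1.81 and -1.62 for Day7 against Day1, against 0.52 and -0.48 as reported. Higher and lower calls over all genes were 245 and 403 for Day7 against Day1 as reported, 152 and 629 with median-of-ratios scaling and 26 and 3768 with scaling to reads outside haemoglobin; for Day7 against 6h they were 68 and 31, and 28 and 56 with median-of-ratios scaling. The count over all genes for Day1 against 6h was 19 as reported, 2 to 56 with a library left out, 1183 and 425 with those scalings, 197 with DESeq2, 9 with edgeR, 45 with the block, 47 with array weights, 82 in a fit of both groups alone, 2 with the Y-linked term (5 in edgeR), 4 without the 2 libraries with fewest genes and 0 with a pseudocount of 4 or no filter. For Day7 against Day1 it was 648, 3 to 1187 with a library left out, 3957 and 3794 with those scalings, 1776 with DESeq2, 2779 with array weights, 1901 in a fit of both groups alone, 410 without the 2 libraries, 57 with no filter, 1 with edgeR and 0 with the Y-linked term in either tool. For Day7 against 6h it was 99, 2 to 693 with a library left out, 0 and 32 with those scalings, 1075 with DESeq2, 156 with the block, 811 with array weights, 7 in a fit of both groups alone, 15 in edgeR with the Y-linked term, 13 with no filter and 5 with a pseudocount of 4; no Hox gene was called there in any of the alternatives run. With replicate number as a block, the counts of Hox genes called were 0, 2 and 0, as reported. Same-numbered libraries deviated together at r of -0.231 to 0.125. The labels do not say what the number stands for, and these r cannot exclude a shared batch. Among 567 alternative differences of single Hox genes, 511 kept their direction and side of the threshold, 16 passed it, 19 no longer did and 21 turned direction, none of them called. Hoxa2 turned to 0.23 for Day1 against 6h with scaling to all reads, to -0.46 and -0.33 for Day7 against Day1 with scaling to all reads and to reads outside haemoglobin, and for Day7 against 6h to -0.23 and -0.34 with these scalings, -0.19 with median-of-ratios scaling, -0.01 with edgeR and -0.50 with DESeq2. Hoxb4 turned to -0.02 for Day1 against 6h with DESeq2, and Hoxb7 to -0.01 for Day7 against 6h with array weights. Hoxa4 turned to 0.85 for Day7 against Day1 in edgeR with the Y-linked term, and for Day7 against 6h to 0.31 with that term in limma and 1.83 in edgeR, where Hoxa5 turned to 0.25 and 0.59. With a library left out, the Day7 against 6h difference ran from -0.33 to 0.44 for Hoxa2, from -0.53 to 0.26 for Hoxa4 and from -0.14 to 0.28 for Hoxb7. The cause was not tested. Without the 2 libraries with the fewest genes, 2 Hox genes were called for Day7 against Day1. A filter on a mean of at least 10 leaves no Hox gene, so it gives no value. Depth limits the low members: a gene at 0 in Day7 replicate 3 could have a value of up to 1.85.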
